A study of Arabidopsis thaliana with 6 samples.

Results

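The ERF and DREB genes are plant genes whose products carry a single AP2/ERF domain. The 59 genes described here, 55 of which belong to the ERF and DREB groups on a list of the family, are the rows of the authors' deposited table of genes whose short description names an integrase-type DNA-binding protein, an ethylene response factor, an ERF domain or DREB, 59 of 13426 rows. A set of 15 IDs, among them APETALA2, AINTEGUMENTA, PLETHORA genes and ABI4, had been left out. The genes were thus chosen by their description and by their measured peaks, since every row of that table has at least 1 RGA-GFP replicate peak, and the presence of a peak is no finding here. Everything below describes these peaks, and no test was run on them.

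AP2/ERF proteins are transcription factors of plants. The ERF subfamily binds the GCC box of ethylene and defence genes, and the DREB subfamily binds the dehydration-responsive element of cold, drought and heat genes. Some members carry an EAR motif and repress transcription. RGA is a DELLA protein, a nuclear repressor of gibberellin responses that has no DNA-binding domain of its own and meets DNA through transcription factors, and gibberellin normally causes its destruction.

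RGA-GFP plants of the Landsberg erecta accession carried RGAp:GFP-rga-delta17, in which the promoter of RGA drives a GFP fusion that gibberellin cannot remove, so that the fusion reports a stabilised protein and not the native one. Wild type Landsberg erecta plants had no GFP and went through the same anti-GFP precipitation. Inflorescence apices, a mixture of meristem, floral buds and stem, were harvested from both groups with 3 biological replicates each, and the labels mark neither the number of insertion lines nor a shared batch. The recorded hours of light and the percentage of formaldehyde used for fixation were the same for every sample of both groups. After duplicate removal the libraries held 14644122, 15704296 and 16745139 tags in RGA-GFP and 10014730, 8808462 and 3999159 in wild type. The authors called 10636, 11116 and 9343 peaks in the RGA-GFP libraries and 972, 285 and 527 in the wild type libraries, each library by itself.

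A pair of measures of peak strength is used throughout, both the authors'. The replicate fold is the summit height of a library over the local background of that same library. The pooled fold is the height in the combined RGA-GFP reads over the local background of the combined wild type reads, so it is a different ratio and its size cannot be set against that of a replicate fold. A library without a called peak has no value, which does not mean a value of 0.

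The descriptions were checked against domain annotation. According to the authors' deposited table, 58 of the 59 genes carry the AP2/ERF domain. The exception is DRIP1 (AT1G06770), a RING-type ubiquitin ligase that binds DREB2A and entered through the word DREB. WRI1, WRI4 and AT2G41710 belong to the WRINKLED branch of the APETALA2 type and not to the ERF or DREB subfamilies, so the ERF and DREB genes proper number 55. They were sorted into the usual groups of the family, I to IV for DREB and V to X for ERF, by a list written from general knowledge. In the authors' deposited table the closest protein match of each of the 55 is another listed family gene, and for 53 it lies in the same group. AT1G33760 (group III here) and AT1G71450 (group II here) match each other, so the group of either is uncertain.

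The wording also leaves family genes out. Of 116 ERF and DREB genes on that list, 84 have a row in the table: the 55 described here and 29 with other wording, such as CBF1, CBF2, DREB1A, ERF2 to ERF6, RAP2.2 and the cytokinin response factors 1 to 5. Of those 29, 25 had a pooled peak in the authors' deposited table, with pooled folds of 1.36 to 2.51 and a median of 1.85. The highest of them, 2.51 at the cold regulator CBF2, lay above every gene described here. A wild type peak lay in the window of 14 of the 29, CBF2 among them, against 8.29% of all rows. Counts below therefore cover the genes with this wording and not the family.

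Of the 59 genes, 45 (76.3%) had a pooled peak in the window in the authors' deposited table, against 64.3% of all rows. A peak height from whole apices cannot tell apart strong binding in few cells and weak binding in many. The 45 had a median pooled fold of 1.76 (quartiles 1.59 and 1.95), and all genes with a pooled peak had a median of 1.73 (quartiles 1.60 and 1.92). A pooled fold of at least 2 was listed for 9 of the 59, against 11.2% of all rows. By the authors' deposited table, 41 of the 59 (69.5%) had overlapping peaks in all 3 RGA-GFP libraries, 8 in 2 libraries and 10 in 1 library, and the share with all 3 over all rows was 65.3%. The strength of the peaks and the share found in all 3 libraries were near those of all rows. On the family list of 116 genes, 57.8% had a pooled peak and 72.4% a row, against 29.7% and 46.1% of the protein-coding genes of RefSeq. The list was written with earlier results of these data known, so these shares are given as a description.

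The 45 genes held 71 pooled peaks, 70 distinct ones since 1 lies in a pair of windows. There was 1 pooled peak in 26 windows, 2 in 14, 3 in 3 and 4 in 2. Windows with at least 2 were 19 of 59, against 17.7% of all rows, and the windows of these genes were also longer, with a median of 4810 bp against 4182.5 bp over all rows. Per 10 kb of window there were 2.77 pooled peaks at the 59 genes and 1.99 over the table. A peak in all 3 RGA-GFP libraries lay under 53 of the 70 distinct peaks (75.7%, and 77.4% of all pooled peaks), in 2 libraries under 11, in 1 library under 3 and in none under 3.

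**Figure D1:**
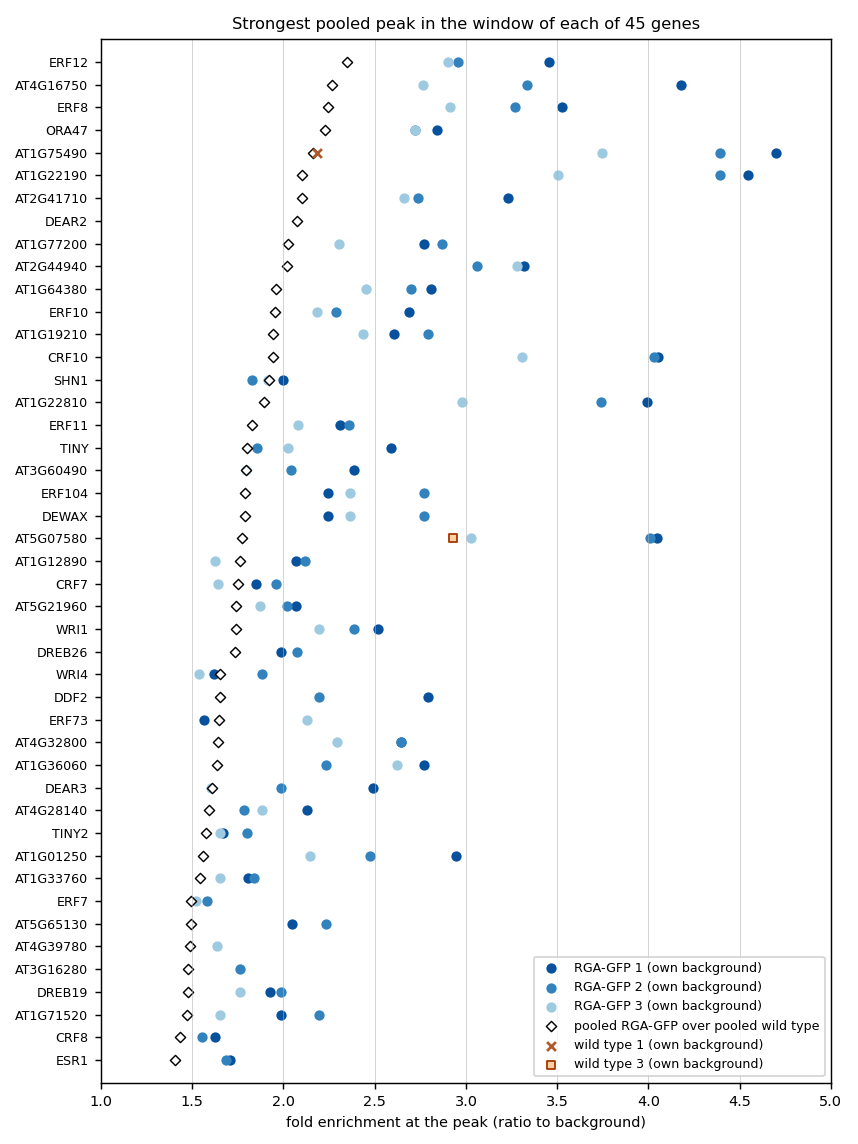
Fold enrichment (horizontal axis, ratio to background) at the strongest pooled peak of each of the 45 genes, 1 gene per row in order of pooled fold. Circles are the RGA-GFP libraries and open diamonds the pooled list; a cross or square marks a wild type library with a peak there. ERF12 stands at the top with a pooled fold of 2.35 and ESR1 at the bottom with 1.41, while replicate folds reach 4.70 at AT1G75490; DEAR2 has no circle because no library had a called peak at its strongest pooled peak.

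Where the summits lie was read from RefSeq gene positions. Of the 71 summits, 27 lay within the gene whose window held the peak, 38 between genes and 6 in another annotated gene only. That other gene was protein-coding for 4 and a noncoding RNA gene for 2. Among the 27, the summits at ERF73, at DREB19 and at the strongest peak of ORA47 also lay in a neighbouring gene. This split was not counted over all pooled peaks. The direction of transcription could be read from the windows for 39 of the 59 genes. Counting their summits outside the gene, 22 were upstream and 11 downstream. The window reaches 3000 bp before the coding sequence and 1500 bp after it, and the longer flank was taken as upstream. These counts therefore do not show a preference for either side. Of the distinct peaks, 35 of 70 (50.0%, and 51.7% of all assigned pooled peaks) also lay in the window of another gene. For these 35 the files do not show which neighbour the peak belongs to. Among them are the strongest pooled peaks of ERF12, ERF8, ORA47, AT1G75490, AT1G22190, AT1G77200 and AT2G41710.

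Group VIIIa holds short ERF repressors with an EAR motif. All 8 of its listed genes had a row in the table, and the 6 with this wording are ERF7 to ERF12. All of these but ERF9 had a pooled peak, with a median pooled fold of 1.95 in the authors' deposited table. All 6 had overlapping peaks in the 3 RGA-GFP libraries in that table.

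ERF12 (AT1G28360) had the highest pooled fold of all 59 genes and 4 pooled peaks along its window. The strongest (chromosome 1, 9949748 to 9950497, upstream of the gene, 2.35 pooled) had replicate folds of 3.46, 2.96 and 2.899 in RGA-GFP libraries 1, 2 and 3 (mean 3.10 ± 0.31, SD, n = 3). The longest of all 70 peaks (9951596 to 9953141, 1546 bp, 2.202 pooled) has its summit in the gene, with replicate folds of 3.58, 3.21 and 2.92. The library peaks under it were shorter than the pooled peak. So the upstream peak and the peak with its summit in the gene were of similar strength in each library. A peak between these (9950695 to 9951194) had a pooled fold of 1.92, and replicate folds of 2.24, 2.22 and 2.16 that barely differed (mean 2.205 ± 0.045, SD, n = 3). The last (9953918 to 9954283, 1.84 pooled) was found at 1.91 and 1.64 in libraries 1 and 2 and had no peak in library 3. No wild type library had a peak in the window.

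ERF11 (AT1G28370), which represses ethylene synthesis genes, is the next gene along the chromosome from ERF12 and had its own peak inside the gene (9956428 to 9956943). The pooled fold was 1.83, and the replicate folds were 2.31, 2.36 and 2.08 (mean 2.25 ± 0.15, SD, n = 3). None of the ERF12 peaks reaches into the ERF11 window by the overlap the table requires.

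ERF8 (AT1G53170) also had 4 pooled peaks. Its strongest, downstream of the gene (chromosome 1, 19819990 to 19820654, 2.25 pooled), had replicate folds of 3.52, 3.27 and 2.92 (mean 3.24 ± 0.31, SD, n = 3). The adjoining peak (19820782 to 19821421, 1.89 pooled) is separate only in library 3, at 2.42, because the peaks of libraries 1 and 2 run across both. A peak over the gene (1.75 pooled) was found at 2.02 and 1.84 in libraries 1 and 2 only. The order of strength changed with the measure at this gene: the upstream peak at the window edge (19825192 to 19825701) had the highest replicate folds of the 4, at 4.38, 3.93 and 3.56, and the lowest pooled fold, 1.54. Wild type library 1 had a peak at that same place, with a fold of 2.298, which lies outside the window.

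ERF10 (AT1G03800) had a pair of pooled peaks. The peak inside the gene had a pooled fold of 1.95 and replicate folds of 2.69, 2.29 and 2.18, and the other had 1.85 and replicate folds of 2.25, 2.23 and 2.18. Libraries 2 and 3 gave close folds at both. ERF7 had the lowest pooled fold of those with a pooled peak among these 6, 1.49, with no peak under it in library 1. ERF9 (AT5G44210) had no pooled peak although all 3 libraries had peaks, with folds of 2.61, 2.66 and 2.09 at its stronger site (mean 2.46 ± 0.31, SD, n = 3). Wild type library 3 had a peak of 2.72 overlapping that site, above the fold of each RGA-GFP library. That wild type peak does not reach into the ERF9 window by the overlap the table requires. In each library the fold at ERF9 was at or above that at ERF11, which has a pooled peak.

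Group III holds the DREB1 and TINY genes. Of its 12 genes with this wording, 11 had a pooled peak in the authors' deposited table, with a median pooled fold of 1.65, and 10 had overlapping peaks in all 3 libraries. AT4G16750 had the highest pooled fold of these 12, 2.27 (chromosome 4, 9422231 to 9422575, upstream). Its replicate folds were 4.18, 3.34 and 2.76 in libraries 1, 2 and 3 (mean 3.42 ± 0.71, SD, n = 3), the widest spread between libraries at any of the 53 peaks found in all 3. A weaker peak inside that gene had a pooled fold of 1.76 and replicate folds of 2.21, 1.95 and 2.04.

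AT1G77200 had a peak upstream of the gene with a pooled fold of 2.02 and replicate folds of 2.77, 2.87 and 2.31, and a weaker one inside it with 1.71 and replicate folds of 2.34, 1.75 and 1.82. AT2G44940 had 3 pooled peaks. The peak inside the gene (chromosome 2, 18537438 to 18538200, 2.02 pooled) had replicate folds of 3.32, 3.06 and 3.28 (mean 3.22 ± 0.14, SD, n = 3), so library 3 was as high as library 1 there. An upstream peak had a pooled fold of 1.87 and replicate folds of 2.47, 2.595 and 2.50. The peak between them (18535644 to 18536058) had a pooled fold of 1.44 and replicate folds of 2.62, 2.09 and 2.19, and it overlapped wild type peaks of 1.92 in library 1 and 2.49 in library 3.

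TINY (AT5G25810), named for the small plants of its activation mutant, had a pooled fold of 1.80 and replicate folds of 2.59, 1.86 and 2.02. Its close relative TINY2 had 1.58 and replicate folds of 1.67, 1.80 and 1.65. Library 1 was the high one at TINY and not at TINY2, and at the remaining genes of these 12 with a pooled peak the pooled folds lay between 1.48 (AT3G16280) and 1.79 (AT3G60490).

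DDF1 and DDF2 are DREB1-type genes named for dwarf and delayed-flowering plants, and DDF1 is known to activate a gene for a gibberellin-inactivating oxidase. DDF1 (AT1G12610) had no pooled peak. It had peaks in all 3 libraries at a pair of places, with folds of 2.53, 2.36 and 2.18 at the stronger (chromosome 1, 4291987 to 4292447, mean 2.36 ± 0.17, SD, n = 3) and 2.21, 2.16 and 1.73 at the other. DDF2 (AT1G63030) had a pooled peak of 1.65 with replicate folds of 2.79 and 2.19 in libraries 1 and 2 and no peak in library 3. Of these paralogues, the gene with peaks in every library lacks a pooled peak, and the gene with a pooled peak lacks a peak in library 3. DDF2 had the higher replicate fold in library 1 and DDF1 in library 2.

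Group II holds small DREB factors of the A-5 type. Of its 11 genes with this wording, 8 had a pooled peak in the authors' deposited table, with a median pooled fold of 1.76. ORA47 (AT1G74930), an activator of jasmonate synthesis genes, stood highest at 2.23 (chromosome 1, 28143767 to 28145013, 1247 bp, over the gene). Its replicate folds of 2.84, 2.72 and 2.72 were the most even of the 12 genes with the highest pooled folds (mean 2.76 ± 0.07, SD, n = 3). This peak also lies in the windows of AT1G74920 and AT1G74929. Its summit lay just outside the ORA47 window, in both ORA47 and AT1G74929 by their RefSeq positions. The other ORA47 peak, with a summit in the neighbour AT1G74940, had a pooled fold of 1.89 and replicate folds of 2.095 and 2.05 in libraries 1 and 2 and no peak in library 3.

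At AT1G19210, the closest match of ORA47 in the table, the only pooled peak had its summit in the neighbouring gene ARF19, an auxin response factor. The pooled fold was 1.95 and the replicate folds were 2.61, 2.79 and 2.44 (mean 2.61 ± 0.18, SD, n = 3). AT1G22810 had a pooled fold of 1.90 with replicate folds of 3.99, 3.74 and 2.98, upstream of the gene and shared with the window of AT1G22830. These values place AT1G22810 among the higher replicate folds of the group, above ORA47 in every library, although its pooled fold was lower.

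DEAR2 (AT5G67190), a DREB protein with an EAR motif, had pooled peaks that the single libraries lacked. Its window holds 3 pooled peaks. The strongest (chromosome 5, 26811071 to 26811396, 2.07 pooled, −log10 q of 13.2) and the peak inside the gene (1.60 pooled) overlapped no peak of any single library. Only the downstream peak (1.77 pooled) had a replicate peak, of 1.95 in library 1. The authors' deposited table lists 1.77 for this gene, the value of the peak that has a replicate peak. The only other pooled peak found in no library lay downstream of SHN1 (1.61 pooled).

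DEAR3, the related gene, had a peak inside the gene of 1.61 pooled and replicate folds of 2.49, 1.99 and 1.60, with library 1 the highest and library 3 the lowest. DREB26 had pooled folds of 1.73 and 1.52. AT5G21960 had a peak over the gene of 1.58 pooled that overlapped a wild type peak, and another of 1.74 that did not. AT1G71520 had one of the 3 lowest pooled folds, 1.47, with replicate folds of 1.99, 2.19 and 1.65.

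Group I, the RAP2.4-type DREB genes, had 7 genes with this wording, of which 6 had a pooled peak in the authors' deposited table, with a median pooled fold of 1.61. AT1G22190 led with 2.101 (chromosome 1, 7832614 to 7833113, upstream), and its replicate folds of 4.54, 4.39 and 3.50 were among the highest of all 59 genes (mean 4.15 ± 0.56, SD, n = 3). No wild type library had a peak there. A further peak inside the gene had a pooled fold of 1.75 and replicate folds of 2.51, 2.47 and 2.09. AT1G64380 had a pair of upstream peaks whose order depended on the measure. The peak with the higher pooled fold, 1.96, had replicate folds of 2.81, 2.70 and 2.45, whereas the other, 1.89 pooled, had 3.53, 3.53 and 3.23 and overlapped a peak of 2.116 in wild type library 1.

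The remaining group I genes were weaker. AT1G36060 had 1.64 pooled, AT4G28140 1.59, AT5G65130 1.49 and AT4G39780 1.49. ERF53 (AT2G20880), a drought-response factor, had no pooled peak and a replicate peak in library 2 only, of 1.65. Wild type library 3 had a peak of 3.14 elsewhere in that window, where no RGA-GFP library had one. Counting peaks inside the window by the overlap the table requires, ERF53 was the only gene of the 59 with a higher best fold in a wild type library than in any RGA-GFP library, each over its own background. The wild type peak at the ERF9 site is left out by that overlap.

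Group IV, the DREB2 genes of drought and heat responses, had 4 genes with this wording. AT1G75490 had the highest replicate folds of all 59 genes, 4.70, 4.39 and 3.75 in libraries 1, 2 and 3 (mean 4.28 ± 0.49, SD, n = 3), at a peak of 1295 bp over the gene (chromosome 1, 28335846 to 28337140). The pooled fold was 2.16 with a −log10 q of 23.4, the highest of all 70 peaks. Wild type library 1 had a peak of 2.18 inside it, below every RGA-GFP library. The upstream peak had 1.82 pooled and replicate folds of 2.45, 2.46 and 2.29, with no wild type peak.

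DREB19 (AT2G38340) had a pooled fold of 1.48 and replicate folds of 1.93, 1.99 and 1.76, in the shortest window of all, 905 bp. The summit of that peak lay just outside the window, in both DREB19 and AT2G38350 by their RefSeq positions. DREB2C and its neighbour AT2G40350 had no pooled peak. Both were listed through the same replicate peak, of 1.81 in library 1, so they give a single observation.

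The ERF groups V to VII had 7 genes with this wording. SHN1 (AT1G15360), an activator of wax and cutin genes, had 3 pooled peaks, all outside the gene. The highest (chromosome 1, 5282461 to 5283681, 1221 bp, 1.92 pooled) had replicate folds of 2.00, 1.83 and 1.92. The peak beside it (1.57 pooled) had replicate folds of 2.00, 2.03 and 2.00 (mean 2.01 ± 0.02, SD, n = 3). ESE3, the other group V gene with this wording, was found in libraries 1 and 2 only and had no pooled peak.

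The group VI genes belong to the cytokinin response factor clade. CRF10 (AT1G68550) had a pooled fold of 1.94 and replicate folds of 4.06, 4.03 and 3.31 (mean 3.80 ± 0.42, SD, n = 3), in a window of 1501 bp. CRF7 (AT1G22985) had pooled folds of 1.75 and 1.58, with replicate folds of 1.85, 1.96 and 1.64 at the stronger. CRF8, the closest match of CRF7, had one of the 3 lowest pooled folds, 1.43, with 1.63 and 1.56 in libraries 1 and 2 and no peak in library 3. CRF11, the closest match of CRF10, had no pooled peak and replicate folds of 2.01, 2.115 and 1.71 at its strongest site. CRF7 was higher than CRF8 in libraries 1 and 2, and CRF10 higher than CRF11 in all 3. ERF73 (AT1G72360), a hypoxia-response factor of group VII, had a pooled fold of 1.64 with 1.57 and 2.13 in libraries 1 and 3 and no peak under it in library 2. That summit lies in both ERF73 and its neighbour AT1G72370 by their RefSeq positions.

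**Figure D2:**
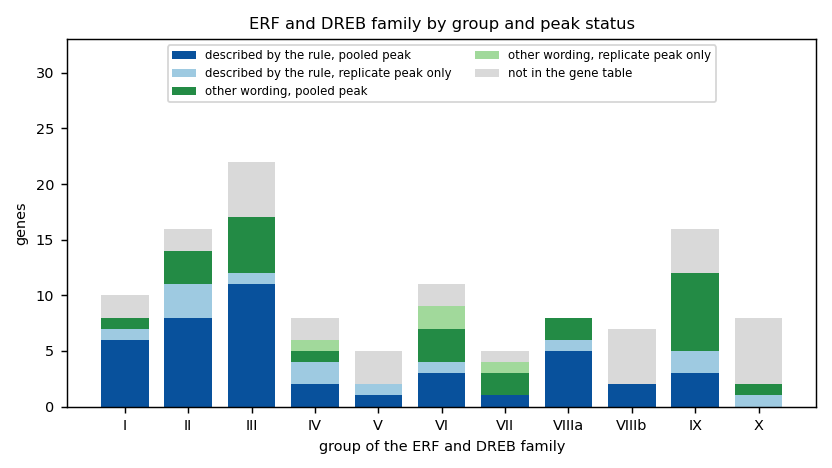
Number of genes (vertical axis) on the list of 116 ERF and DREB genes, by family group, split into genes with the wording used here (blue), genes with other wording (green) and genes not in the gene table (grey), with dark shades for a pooled peak. Group III has 11 genes in dark blue, and in groups V, VIIIb and X most genes are grey, 3 of 5, 5 of 7 and 6 of 8.

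Of the 7 group VIIIb genes on the list, 2 had a row in the table, against 72.4% of the 116 listed genes and 46.1% of the protein-coding genes of RefSeq. AT1G12890 had a pooled fold of 1.76 and replicate folds of 2.07, 2.1 and 1.62, with the summit in the neighbour NUDT12. ESR1 (AT1G12980), which promotes shoot regeneration and embryo patterning, had the lowest pooled fold of all 45 genes, 1.41 (−log10 q of 2.03), with 1.71 and 1.69 in libraries 1 and 2 and no peak in library 3.

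Group IX holds the ethylene and pathogen-response ERFs. DEWAX (AT5G61590), a repressor of wax synthesis, and ERF104 (AT5G61600), a flagellin-response factor, are neighbours and shared a pooled peak inside DEWAX (chromosome 5, 24765130 to 24765666). It had a pooled fold of 1.79 and replicate folds of 2.24, 2.77 and 2.37 (mean 2.46 ± 0.28, SD, n = 3), so that library 2 was the high one. ERF104 had another peak over the gene itself, 1.68 pooled, with replicate folds of 3.07, 2.24 and 2.197. AT5G07580, the closest match of DEWAX, had an upstream peak (2399222 to 2399779) of 1.77 pooled and replicate folds of 4.05, 4.01 and 3.03 (mean 3.70 ± 0.58, SD, n = 3), and wild type library 3 had a fold of 2.93 at that place. ESE1 and AT5G43410 were found in library 1 only, at 1.97 and 2.53, and ERF115 (AT5G07310, group X), a factor of root stem cell division, in libraries 1 and 2 only, at 2.19 and 2.02. None of these last 3 had a pooled peak.

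Outside the ERF and DREB groups, AT2G41710 had a pooled fold of 2.099 with replicate folds of 3.23, 2.74 and 2.66 (mean 2.88 ± 0.31, SD, n = 3). WRI1, the regulator of seed oil synthesis, had 1.74 with replicate folds of 2.52, 2.39 and 2.195. WRI4, a regulator of stem wax, had the higher replicate folds, 3.44, 2.99 and 2.64, at the peak with the lower pooled fold, 1.56, where wild type library 1 had a peak of 2.07. Its other peak had 1.65 pooled and replicate folds of 1.62, 1.88 and 1.54. DRIP1 had no pooled peak and replicate folds of 1.89, 1.89 and 1.83.

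In all, 14 of the 59 genes had no pooled peak, and 4 of these, DRIP1, DDF1, CRF11 and ERF9, had overlapping peaks in all 3 libraries. AT1G71450 was found in libraries 2 and 3 (1.71 and 1.74), and AT1G77640 at several places but in no more than 2 libraries at each, with its highest fold, 2.195, in library 1. The 10 genes with 1 library in the authors' count had their best replicate peak in library 1 for 7, library 2 for 2 and library 3 for 1. The same split over all rows was not counted. DREB2C and AT2G40350, which share a peak, are both among the 7. The gene of library 3 is ERF73, where library 1 also had a peak elsewhere in the window with a −log10 q of 3.59. The weakest support for a row was at CRF8, where the best replicate peak had a −log10 q of 3.38, just above the 3 that the table asks for.

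Of the 59 genes, 9 had a wild type peak somewhere in the window, against 8.29% of all rows. These were AT1G75490, AT2G44940, AT1G64380, DEWAX, AT5G07580, AT5G21960, WRI4, AT1G01250 and ERF53. Wild type library 1 accounted for 7 genes, library 2 for 1 and library 3 for 3, against 7.11%, 1.02% and 3.27% of all rows. Without wild type library 1 the count was 4. Among the 70 distinct pooled peaks, 7 (10.0%) overlapped a wild type peak directly, and among all pooled peaks 6.29% did.

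At those 7 peaks the summit heights, scaled to 1000000 kept tags, can be set beside each other. At AT1G75490 the summit height was 21.9, 18.6 and 15.6 in RGA-GFP libraries 1, 2 and 3, and 7.39 in wild type library 1. The peak of AT1G64380 had 17.6, 15.9 and 13.5 in RGA-GFP, and 7.39 in wild type library 1. At the ERF8 edge peak the heights were 16.5, 13.7 and 12.003 in RGA-GFP, and 7.79 in wild type library 1. RGA-GFP was the higher in each library at these 3 peaks, and at WRI4 and AT5G21960 it was also higher in each, with the lowest RGA-GFP heights, 9.73 and 9.55, set against 6.99 and 6.89 in wild type library 1. The groups overlapped at the other two peaks. AT5G07580 had 14.75, 15.15 and 10.21 in RGA-GFP, and 10.25 in wild type library 3. The AT2G44940 peak had 10.9, 8.79 and 8.30 in RGA-GFP, and 6.49 and 9.50 in wild type libraries 1 and 3. Wild type library 3 was the shallowest of all, with 3999159 tags, and its part in this overlap was not tested.

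**Figure D3:**
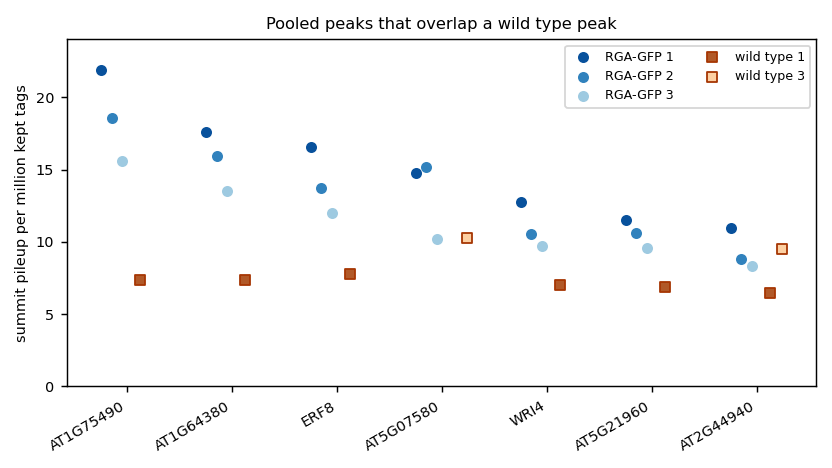
Summit pileup scaled to 1000000 kept tags (vertical axis) at the 7 pooled peaks lying on a wild type peak, with RGA-GFP libraries as circles and the wild type libraries that had a peak as squares. RGA-GFP lies above wild type library 1 at every one of the 6 peaks where that library had a peak, with 21.9, 18.6 and 15.6 against 7.39 at AT1G75490; wild type library 3 reaches into the RGA-GFP range at AT5G07580 and AT2G44940.

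The 7 peaks with a wild type peak combined high replicate folds with low pooled folds. Their median was 3.43 for the mean replicate fold and 1.58 for the pooled fold, and the 46 other peaks found in all 3 RGA-GFP libraries had medians of 2.36 and 1.79. The same held over all pooled peaks found in all 3 libraries: the 507 with a wild type peak had medians of 3.13 and 1.70, and the 5774 without had 2.26 and 1.75. Wild type signal enters the pooled fold as its background and does not enter the replicate fold. A site on a wild type peak is also in the pooled list only if it passed against that background. The way the peaks were called thus bears on both medians, and its part was not tested. Across the 53 peaks, which share their libraries, Spearman's rho between pooled and mean replicate fold was 0.58, and across all 6281 such peaks it was 0.49.

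**Figure D4:**
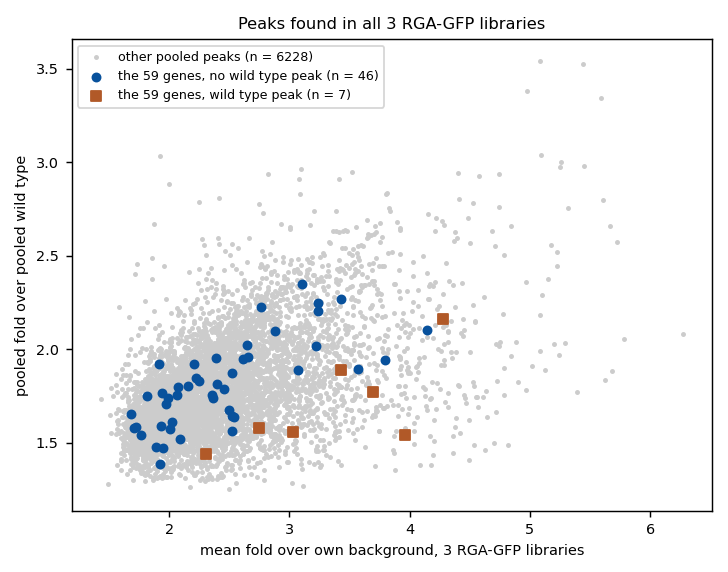
Pooled fold (vertical axis) against the mean fold of the 3 RGA-GFP libraries (horizontal axis) for pooled peaks found in all 3 libraries: 46 peaks of the 59 genes without a wild type peak (circles), 7 with one (squares) and 6228 other peaks (grey). The squares lie low for their replicate fold, with medians of 3.43 and 1.58, and the circles lie within the grey cloud.

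Between libraries the order of these peaks was similar, with Spearman's rho of 0.88, 0.91 and 0.91 for libraries 1 and 2, 1 and 3, and 2 and 3 over the 53 peaks. The level differed by library: the median fold was 2.59, 2.39 and 2.195 in libraries 1, 2 and 3, and 2.43, 2.38 and 2.1 over all such pooled peaks. Library 3 was the lowest of the 3 at 42 of the 53 peaks (79.2%, and 76.3% over all), and library 1 the highest at 35 (66.0%, and 58.0% over all). The median SD between the 3 libraries was 0.23 at these peaks and 0.21 over all. This spread includes the level difference between libraries that the peaks share, so it is not the error of a difference between genes.

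The genes were spread unevenly over the chromosomes. Chromosome 1 held 30 of the 59 (50.8%), against 26.9% of all rows of the table and 35.3% of the 116 genes on the family list. Chromosomes 2, 3, 4 and 5 held 7, 6, 4 and 12. All of the 7 highest pooled folds but those of AT4G16750 and AT2G41710 were on chromosome 1. Which family genes carry this wording also enters this share, and its part was not tested.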

How the data were processed

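Peaks of 3 RGA-GFP and 3 wild type ChIP-seq libraries were analysed, grouped by their titles. Per the submitters' processing notes, Bowtie2, SAMtools and MACS2 2.0.10 were used on the TAIR10 build. Per the file headers (MACS 2.0.10.20130915), tags were extended to 300 bp, 1 tag was kept per position and the q cutoff was 0.05. Each library was called alone over its own background from 10000 bp, and the pooled RGA-GFP reads were called against the pooled wild type over 1000 and 10000 bp. The authors' fold is a ratio of summit pileup to background, the deposited pileup is a signal (extended tags at the summit), and significance is the authors' −log10 q value. Per the file headers, the gene table takes 3000 bp before and 1500 bp after the coding sequence as the window, and asks for an overlap of 50 bp and a log10 q of 3. Its number of libraries, recomputed here as libraries with mutually overlapping peaks, matched for 96.5% of rows and all 59 genes, and its pooled fold for 98.2% of rows and 58 genes.

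Here, pandas 2.3.3 code took, for each pooled peak, the strongest peak of each library that overlaps it by 1 bp, so a wide library peak can serve 2 pooled peaks. Pileups were scaled to 1000000 kept tags. Intervals were tested on simulated windows. RefSeq TAIR10.1 served for names and for which gene a summit lies in, and direction was read where only 1 flank passed 1500 bp.

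The genes, the family list and the rules for named genes were chosen with earlier results of these data known. Named were the 12 highest pooled folds, the top 2 of each group, up to 8 windows with several pooled peaks, up to 8 peaks on a wild type peak, the 3 lowest, shared peaks, and 6 genes without a pooled peak; other genes were named after their values were seen. Sequence motifs and proteins were not analysed here.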

Additional observations from a re-analysis of the deposited data

How the results depend on the processing

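Of 23 alternatives, 19 left a count within 1.5 times its value, or a median within the spread between libraries, and 4 did not. The 45 genes with a pooled peak became 16 at a −log10 q of at least 10 and 10 at a pooled fold of at least 2. They numbered 37 to 40 when the peak had to be found in both RGA-GFP libraries other than a left-out one, 43 with the summit in the window, 44 without peaks on a wild type peak and 45 at an overlap of 1 bp. The 41 genes with overlapping peaks in all 3 RGA-GFP libraries became 27 at a −log10 q of at least 10 for replicate peaks, and 42 to 48 when 1 library was left out. Leaving a library out asks for peaks in fewer libraries and so eases the requirement, and these settings count among the 19. The 9 genes with a wild type peak in the window became 4 without wild type library 1, and ranged from 4 to 8 over the left-out libraries. They numbered 8 at a −log10 q of at least 3. When the wild type peak had to overlap the pooled peak there were 7 genes. Of these, 6 are among the 9, and the other is ERF8, whose wild type peak lies outside its window. The median pooled fold of 1.76 ranged from 1.75 to 1.79.

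No paired analysis was possible because the values are descriptions of peak lists with no test, and the replicate numbers are not tied to a shared batch by the labels. Depth differed between libraries, and its part in what was called was not tested. Wild type library 3 held 3999159 tags and had 527 peaks, while wild type library 2 held 8808462 tags and had 285. A missing wild type peak does not show that signal is absent.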
